A study of Homo sapiens with 27 samples.

Results

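Transcript levels of 9 genes of B-cell receptor signalling, CD79A, CD79B, MS4A1, CD22, LYN, SYK, BTK, BLNK and PLCG2, were followed in diffuse large B-cell lymphoma (DLBCL) cells after knockdown of SIRT3, a mitochondrial deacetylase. The 9 genes were taken by symbol from the 27115 genes listed for each library, with no threshold on their values. The list itself was chosen with earlier results of these data known. RNA-seq was performed in 3 established DLBCL lines that the study uses as models of DLBCL subtypes, namely Karpas422 (OXPHOS), OCI-LY1 (GCB) and HBL1 (ABC). By the paper's methods, OCI-LY1 was kept in Iscove's medium, and Karpas422 and HBL1 in RPMI with added L-glutamine and HEPES. Cells of each line received a scramble control shRNA (shCtr) or 1 of 2 shRNAs against SIRT3 (shSIRT3-1 and shSIRT3-2), and total RNA was taken on day 8. All groups, the controls included, were infected with a pLKO.1 lentivirus that carries the shRNA together with YFP and puromycin resistance. With 3 replicates in each of 9 groups there were 27 libraries, and the labels do not say whether replicates came from separate infections, so p-values measure only the spread between these libraries.

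The B-cell receptor is a membrane immunoglobulin that signals through the CD79A and CD79B chains, whose tails are phosphorylated by the Src-family kinase LYN and then bind the kinase SYK. SYK and the Tec-family kinase BTK act with the adaptor BLNK to activate phospholipase PLCG2, which leads to calcium release and to NF-kB and MAPK signals. CD22 is an inhibitory lectin that recruits phosphatases to the receptor, and MS4A1 encodes CD20, the surface protein targeted by rituximab. Many DLBCL lines depend on this pathway, most of all those of the ABC type.

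Of the 9 genes, CD22 and BLNK gave the largest changes, and CD79A changed in opposite directions in different lines, so the stretches of reference sequence just before their annotated starts are shown. They are from RefSeq on GRCh38.p14, 250 bases long, written 5′ to 3′ on the strand of the gene. Capitals mark a match to a searched motif, and a sequence without capitals held none.
CD22: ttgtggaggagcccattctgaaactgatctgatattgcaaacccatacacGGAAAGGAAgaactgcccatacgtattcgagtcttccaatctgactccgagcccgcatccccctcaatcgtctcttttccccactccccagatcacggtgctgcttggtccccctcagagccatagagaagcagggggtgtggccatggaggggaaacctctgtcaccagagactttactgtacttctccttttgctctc
BLNK: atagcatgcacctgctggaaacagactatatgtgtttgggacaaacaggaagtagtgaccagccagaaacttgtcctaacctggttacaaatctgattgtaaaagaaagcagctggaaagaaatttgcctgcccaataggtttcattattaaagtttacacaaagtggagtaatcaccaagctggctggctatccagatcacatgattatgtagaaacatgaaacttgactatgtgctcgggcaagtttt
CD79A: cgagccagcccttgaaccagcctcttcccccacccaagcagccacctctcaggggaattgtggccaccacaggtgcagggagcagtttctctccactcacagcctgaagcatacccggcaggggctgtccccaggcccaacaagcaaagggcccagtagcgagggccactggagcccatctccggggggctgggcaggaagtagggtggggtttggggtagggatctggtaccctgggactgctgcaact

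The CD22 stretch lies at chr19:35328937-35329186 on the plus strand, the BLNK stretch at chr10:96271570-96271819 on the minus strand and the CD79A stretch at chr19:41877029-41877278 on the plus strand. Their GC contents were 52.8%, 40.4% and 64.0%. Promoters were matched for 6 of the 9 genes, and 4 motifs were searched on both strands. The ETS-IRF composite GGAANNGAA matched once, in the CD22 stretch, from 200 to 192 bases before the start, and it was present in 6.58% of all 35116 promoters of this length. The octamer ATGCAAAT (1.63% of all promoters), the EBF1 core CCCNNGGGA (7.84%) and the C/EBP-ATF element TGATGNAA (3.14%) were not found in the 6 genes. A match describes letters only, and the motifs do not overlap in the stretches shown.

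Between 28694398 and 53405456 reads per library fell on genes, and values are given as CPM, a read count scaled to the size of the library. Each of the 7 B-cell markers checked averaged at least 1 CPM in every group, while none of 6 myeloid markers did in any. Of 5 T-cell markers, CD3G averaged 24.1 to 37.9 CPM in the Karpas422 groups, and CD3D 1.49 CPM in Karpas422 shCtr. CD8A averaged 2.07 CPM in HBL1 shCtr and 1.91 CPM in HBL1 shSIRT3-2. Of 5 epithelial markers, EPCAM averaged 3.92 to 5.98 CPM in the HBL1 groups. Other means of these T-cell and epithelial markers were below 1 CPM. SIRT3 fell with each shRNA in each line. In Karpas422, SIRT3 was at 9.99, 9.14 and 10.2 CPM in the shCtr libraries, 2.44, 2.79 and 2.57 CPM with shSIRT3-1 and 6.24, 5.32 and 4.41 CPM with shSIRT3-2. In the other two lines the shCtr libraries lay between 9.98 and 16.4 CPM and no knockdown library exceeded 6.17 CPM. In the fit across lines SIRT3 changed by a log2 of -2.45 (SE 0.17) with shSIRT3-1 and -1.37 (SE 0.17) with shSIRT3-2, and the knockdown was weaker with shSIRT3-2 (difference 1.08 on the log2 scale, limma adjusted p = 4.57e-05).

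In the shCtr libraries, the receptor chains were the most abundant of the 9 transcripts per length and BLNK was the least abundant in Karpas422 and OCI-LY1. As CPM per kb of the canonical transcript (mean ± SD, n = 3), CD79A stood at 314 ± 10.7 in OCI-LY1, 282 ± 64.8 in Karpas422 and 281 ± 63.9 in HBL1. CD79B stood at 463 ± 12.4, 259 ± 50.8 and 296 ± 67.9 in the same order. BLNK stood at 5.92 ± 0.54 in Karpas422 and 6.36 ± 1.11 in OCI-LY1 but at 51.6 ± 8.91 in HBL1. CD22 showed the reverse order, with 119 ± 51.8 and 156 ± 30.9 in Karpas422 and OCI-LY1 and 15.9 ± 3.92 in HBL1.

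**Figure D1:**
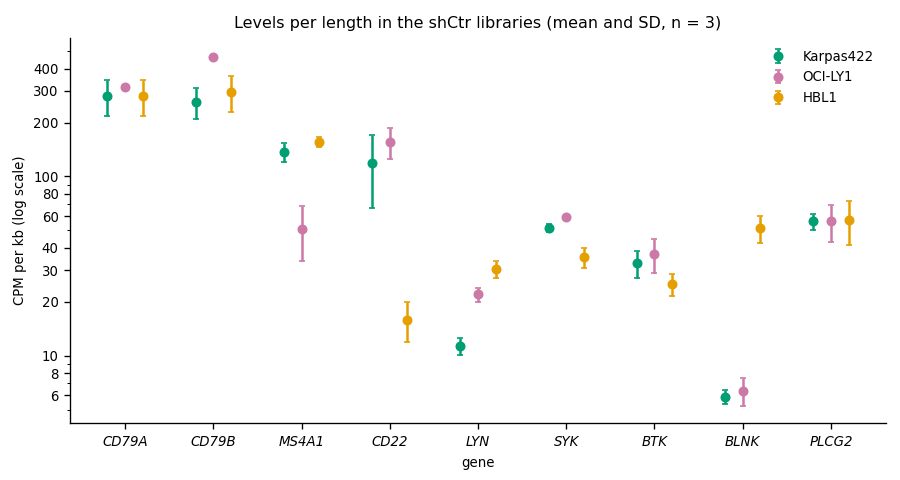
Levels of the 9 genes per length in the shCtr libraries, as CPM per kb of the canonical transcript on a log axis, with points for the mean of 3 libraries and bars for the SD. BLNK in HBL1 sits at 51.6 against 5.92 and 6.36 in the other lines, and CD22 in HBL1 at 15.9 against 119 and 156.

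Levels were compared between lines as log2(CPM + 0.1), and a gene was called where the limma adjusted p was under 0.05 and the fold change above 1.5. In shCtr libraries, 3 of the 9 genes were called between OCI-LY1 and Karpas422 (50.8% of all genes tested), 3 between HBL1 and Karpas422 (54.6%) and 5 between HBL1 and OCI-LY1 (54.6%), so these counts lie at or below the share for all genes. BLNK was 8.63-fold higher in HBL1 than in Karpas422 (log2 3.11, SE 0.16, adjusted p = 2.38e-08) and 8.09-fold higher than in OCI-LY1. CD22 was lower in HBL1 than in Karpas422 (log2 -2.82, SE 0.33, adjusted p = 2.53e-05) and than in OCI-LY1 (log2 -3.30). LYN was higher in OCI-LY1 (log2 0.96) and in HBL1 (log2 1.43) than in Karpas422, and MS4A1 was lower in OCI-LY1 than in Karpas422 (log2 -1.47) and higher in HBL1 than in OCI-LY1 (log2 1.67). CD79B was higher in OCI-LY1 than in Karpas422 (log2 0.86) and lower in HBL1 than in OCI-LY1 (log2 -0.67), and the second call was lost without HBL1 shCtr replicate 1 (log2 -0.56, adjusted p = 0.0459). SYK was lower in HBL1 than in OCI-LY1 (log2 -0.75). CD79A, BTK and PLCG2 were called in none of these pairs, although BTK passed the adjusted p alone between HBL1 and OCI-LY1 (log2 -0.54, adjusted p = 0.0212) and was called without OCI-LY1 shCtr replicate 2 or HBL1 shCtr replicate 3 (log2 -0.68 to -0.66) and by both edgeR tests (log2 -0.63). SYK was likewise called lower in HBL1 than in Karpas422 without HBL1 shCtr replicate 1 or 2 (log2 -0.61 to -0.58).

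Of the 9 genes, CD22 alone was called over the 3 lines against shCtr, and with shSIRT3-2 only. With shSIRT3-1, 0 of 9 were called (13.0% of the 13076 genes tested were). At an unadjusted p under 0.05 there were 5, and edgeR on recovered reads also called 0. With shSIRT3-2, 1 of 9 was called (13.5% of all genes), CD22, which fell to 0.23 of the control level (log2 -2.12, SE 0.41, adjusted p = 0.000305). The shSIRT3-1 and shSIRT3-2 comparisons share their shCtr libraries. The median log2 fold change of the 9 genes was 0.10 with shSIRT3-1 and -0.01 with shSIRT3-2, against -0.05 and -0.03 for all genes tested. BLNK with shSIRT3-1 passed the adjusted p but not the fold threshold (log2 -0.56, adjusted p = 0.00666), and was called without OCI-LY1 shCtr replicate 1, OCI-LY1 shCtr replicate 3 or OCI-LY1 shSIRT3-1 replicate 2 (log2 -0.65 to -0.63). CD79B (log2 0.38) and BTK (log2 0.36) with shSIRT3-1 passed the adjusted p alone as well.

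The hairpins also differed from each other. In the direct comparison of shSIRT3-2 with shSIRT3-1 over the lines, 2 of 9 genes were called (11.3% of all genes), both lower with shSIRT3-2. CD22 differed by a log2 of -2.17 (SE 0.41, adjusted p = 0.000295) and MS4A1 by -0.97 (SE 0.18, adjusted p = 0.000265). Both stayed called without any 1 of the 27 libraries. LYN, BTK and BLNK were not called, and the 95% interval of the difference was -0.14 to 0.19 for LYN, -0.26 to 0.17 for BTK and -0.22 to 0.43 for BLNK. PLCG2 (log2 -0.33, adjusted p = 0.0327) and SYK (log2 0.19, adjusted p = 0.0354) passed the adjusted p but not the fold threshold.

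Line by line, most of the calls were in HBL1. In HBL1, 4 of 9 genes were called with shSIRT3-1 (27.7% of all genes tested in that line) and 5 of 9 with shSIRT3-2 (23.5%). In Karpas422, 0 of 9 were called with shSIRT3-1 (16.0%), with 3 at an unadjusted p under 0.05 and 0 by edgeR, and 3 of 9 with shSIRT3-2 (15.0%). OCI-LY1 had 1 of 9 with shSIRT3-1 (4.50%) and 0 of 9 with shSIRT3-2 (6.41%), with 3 at an unadjusted p under 0.05 and 0 by edgeR. Between the hairpins, 3 of 9 were called in HBL1 (27.9%), 2 in Karpas422 (11.5%) and 1 in OCI-LY1 (4.68%). Knockdown libraries of many genes did not overlap the controls. In HBL1 this held for 4 of 9 genes with shSIRT3-1 (50.9% of all genes tested) and 6 of 9 with shSIRT3-2 (60.9%). It held for 2 of 9 (51.2%) and 5 of 9 (47.0%) in Karpas422. In OCI-LY1 it held for 3 of 9 (30.9%) and 4 of 9 (33.3%). Non-overlap with the controls given below is to be read beside these shares. With 9 genes, each of these counts rests on single genes, whose values follow.

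**Figure D2:**
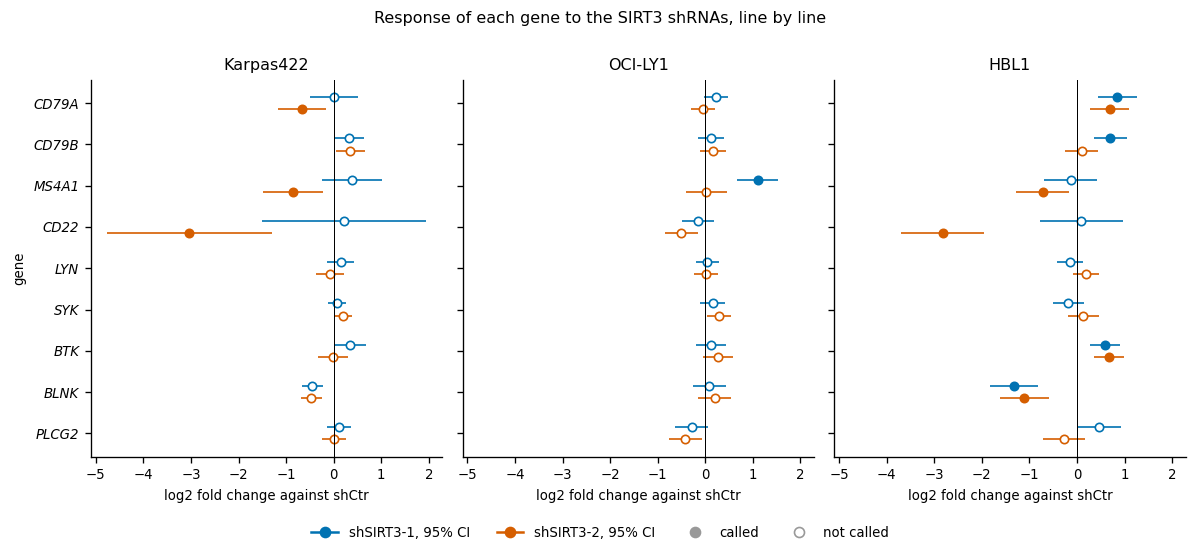
Log2 fold change of each gene against shCtr in each line (points) with its 95% confidence interval (lines), for shSIRT3-1 and shSIRT3-2, with filled points for called genes. CD22 with shSIRT3-2 stands at -3.04 in Karpas422 and -2.82 in HBL1 but at -0.51 in OCI-LY1.

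CD79A and CD79B encode the receptor's signalling chains, at chr19:42381349-42385439 and chr17:62006098-62009696 of hg19. In HBL1, CD79A was at 277, 261 and 390 CPM in the shCtr libraries, 515, 477 and 668 CPM with shSIRT3-1 and 494, 460 and 524 CPM with shSIRT3-2. Every HBL1 knockdown library was above every control library. Of all genes tested in HBL1, 50.9% with shSIRT3-1 and 60.9% with shSIRT3-2 had no overlap with the controls. CD79A rose 1.80-fold with shSIRT3-1 (log2 0.85, SE 0.18, adjusted p = 0.00657) and 1.62-fold with shSIRT3-2 (log2 0.69, SE 0.18, adjusted p = 0.0177). The second call was lost without HBL1 shCtr replicate 1 or 2 or HBL1 shSIRT3-2 replicate 1 or 3 (log2 0.58 to 0.69, adjusted p 0.059 to 0.0735).

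In Karpas422 the direction of CD79A was the opposite with shSIRT3-2. Its CPM was 328, 370 and 232 with shCtr, 327, 327 and 265 with shSIRT3-1 and 218, 237 and 136 with shSIRT3-2, and replicate 3 was the lowest library in each of these groups. One shSIRT3-2 library overlapped the controls. CD79A fell with shSIRT3-2 (log2 -0.67, SE 0.23, adjusted p = 0.0485), close to the threshold. The call was lost with no filter on low values, with quantile or median-ratio scaling, without a variance trend, and without any 1 of 7 libraries, namely shCtr replicates 1 and 2, shSIRT3-1 replicates 1, 2 and 3 and shSIRT3-2 replicates 1 and 3 (log2 -0.76 to -0.42, adjusted p 0.0531 to 0.159). The difference between the hairpins was as large (log2 -0.67, adjusted p = 0.0591) and was called without Karpas422 shCtr replicate 3 or shSIRT3-2 replicate 2. It was also called with a replicate block (adjusted p = 0.00474), by edgeR's quasi-likelihood (0.0467) and likelihood ratio (0.0126) tests on recovered reads and in 1 fit of all 9 groups (0.0179). In OCI-LY1, where all 9 libraries lay between 304 and 428 CPM, CD79A was not called.

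CD79B rose in HBL1 with shSIRT3-1, from 309, 331 and 465 CPM to 550, 580 and 643 CPM (log2 0.70, SE 0.15, adjusted p = 0.00763). With shSIRT3-2 the HBL1 libraries were at 381, 385 and 398 CPM, inside the range of the controls. The difference between the hairpins in HBL1 was called (log2 -0.60, SE 0.15, adjusted p = 0.0162), and was lost without HBL1 shSIRT3-1 replicate 3 or HBL1 shSIRT3-2 replicate 1 or 2 (log2 -0.60 to -0.54, adjusted p 0.0234 to 0.0585) and under quantile normalization. In Karpas422, CD79B was at 334, 380 and 255 CPM with shCtr and between 380 and 416 CPM in the 6 knockdown libraries, and log2 fold changes of 0.32 and 0.35 were not called (adjusted p = 0.0992 and 0.0811). In OCI-LY1 its log2 fold changes were 0.12 and 0.16.

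The CPM ratio of CD79A to CD79B therefore moved apart in the lines. In Karpas422 it averaged 0.955 with shCtr (0.908 to 0.982), 0.766 with shSIRT3-1 (0.697 to 0.805) and 0.483 with shSIRT3-2 (0.349 to 0.574), without overlap between the groups. HBL1 went the other way, with 0.841 (0.787 to 0.898) in the controls, 0.932 (0.822 to 1.04) with shSIRT3-1 and 1.27 (1.20 to 1.32) with shSIRT3-2. The HBL1 shSIRT3-1 libraries overlapped the controls, and the HBL1 shSIRT3-2 libraries did not. In OCI-LY1 the ratio averaged 0.599 with shCtr (0.578 to 0.642), 0.641 with shSIRT3-1 (0.596 to 0.684) and 0.518 with shSIRT3-2 (0.459 to 0.568). The OCI-LY1 shSIRT3-2 libraries thus lay below the controls, as in Karpas422, while the OCI-LY1 shSIRT3-1 libraries overlapped them. An exact permutation test of 3 libraries against 3 cannot give a p below 0.10, so these ratios are given as values.

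**Figure D3:**
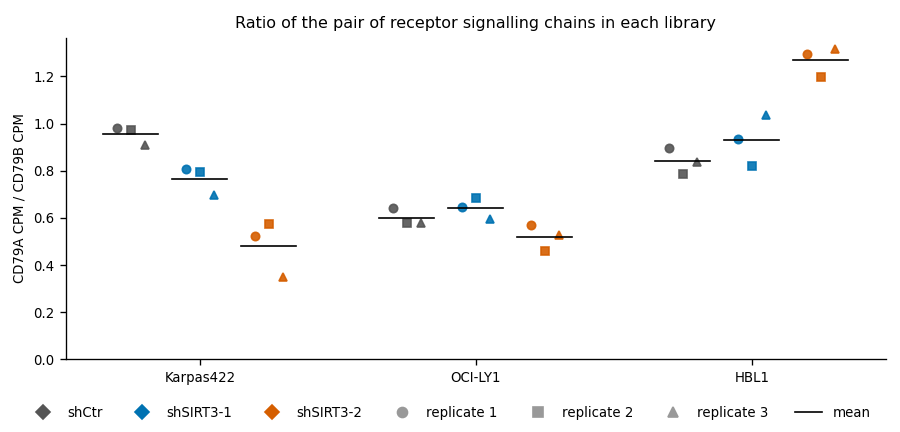
Ratio of CD79A CPM to CD79B CPM in each library, by line and shRNA, with symbols for replicates and a bar for the mean of each group. With shSIRT3-2 the mean is 0.483 in Karpas422 and 1.27 in HBL1, against 0.955 and 0.841 with shCtr.

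CD22, an inhibitory receptor of the sialic acid-binding lectin family at chr19:35810164-35838264 of hg19, had the widest range of the 9 genes, 65.5-fold between the highest and the lowest group mean. In Karpas422 it was at 441, 527 and 200 CPM with shCtr, 513, 455 and 311 CPM with shSIRT3-1 and 102, 88.0 and 9.26 CPM with shSIRT3-2. In HBL1 it was at 38.4, 54.0 and 63.9 CPM, 59.4, 73.7 and 36.9 CPM, and 6.29, 12.6 and 4.55 CPM in the same order. In both lines every shSIRT3-2 library was below every control library, while the shSIRT3-1 libraries overlapped the controls.

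With shSIRT3-2, CD22 fell to 0.122 of control in Karpas422 (log2 -3.04, SE 0.78, adjusted p = 0.0157) and to 0.141 of control in HBL1 (log2 -2.82, SE 0.38, adjusted p = 0.001). The HBL1 call held without any 1 library. The Karpas422 call was lost without shCtr replicate 1 or 2 (log2 -2.89 to -2.76, adjusted p 0.051 to 0.061), and its size depended on shSIRT3-2 replicate 3, the library at 9.26 CPM, and on shSIRT3-2 replicate 1 (log2 -1.92 and -3.65 without the one or the other, both called). Against shSIRT3-1, CD22 was lower with shSIRT3-2 in Karpas422 (log2 -3.25, SE 0.78, adjusted p = 0.0173) and in HBL1 (log2 -2.92, SE 0.38, adjusted p = 0.00123). The first of these was lost without Karpas422 shSIRT3-1 replicate 1 (log2 -3.10, adjusted p = 0.059) and ranged from -3.86 to -2.14 without shSIRT3-2 replicate 1 or 3.

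In OCI-LY1, CD22 was at 419, 495 and 620 CPM with shCtr, 466, 433 and 461 CPM with shSIRT3-1 and 391, 309 and 370 CPM with shSIRT3-2. The shSIRT3-2 libraries were again the lowest, but the log2 fold change of -0.51 (SE 0.15) was not called (adjusted p = 0.0674), except without OCI-LY1 shCtr replicate 1 (log2 -0.64, adjusted p = 0.0174). With shSIRT3-1 the log2 fold change was 0.22 in Karpas422, 0.09 in HBL1 and -0.15 in OCI-LY1, and the interval in Karpas422 (-1.52 to 1.95) was too wide to exclude changes of either sign. Over the 3 lines the interval with shSIRT3-1 was -0.80 to 0.90.

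Some plasma cell markers, SDC1 and PRDM1, were higher in Karpas422 with shSIRT3-2, where CD22 was lower. PRDM1, a transcription factor of plasma cell differentiation, was at 0.216, 0.152 and 0.427 CPM with shCtr, 0.279, 0.421 and 3.13 CPM with shSIRT3-1 and 5.70, 4.12 and 46.9 CPM with shSIRT3-2. PRDM1 rose with shSIRT3-2 there by a log2 of 4.91 (SE 0.96, adjusted p = 0.00489) and SDC1 by 1.40 (SE 0.10), while TNFRSF17 fell by 1.31 (SE 0.30). TNFRSF17 averaged 3.73 CPM with shCtr, 0.745 CPM with shSIRT3-1, where CD22 was not called, and 1.47 CPM with shSIRT3-2. SLAMF7 averaged 0.160 CPM with shCtr and 0.0678 CPM with shSIRT3-2. The summed level of the 4 plasma cell markers was 11.8 to 14.1 CPM with shCtr, 13.0 to 15.7 CPM with shSIRT3-1 and 28.1 to 72.4 CPM with shSIRT3-2, and 2, 2 and 3 of the 4 averaged at least 1 CPM, with none at 0. In HBL1 the sum was 161 to 221 CPM with shCtr and 99.8 to 148 CPM with shSIRT3-2, and PRDM1 was not called with shSIRT3-2 (log2 0.24). The library with the least CD22 in Karpas422 had the most PRDM1, and the part of these markers in the CD22 result, and in that of MS4A1 given next, was not tested. B-cell markers also changed in these groups, but not in step with all of the 9 genes. CD79A and BTK, for instance, were called higher in HBL1 with both shRNAs. In HBL1, 3 of 7 were called lower with shSIRT3-1 (18.8% of all genes tested were) and 6 of 7 with shSIRT3-2 (16.0%), with a median log2 fold change of -0.61 and -1.07. Their summed level in HBL1 was 2101 to 2509 CPM with shCtr, 1491 to 2092 CPM with shSIRT3-1 and 1026 to 1278 CPM with shSIRT3-2. In Karpas422, 0 and 1 of 7 were called lower (11.5% and 9.44% of all genes tested), with a median of -0.26 and -0.69. Their summed level in Karpas422 was 2794 to 3205 CPM with shCtr, 2696 to 3620 CPM with shSIRT3-1 and 1545 to 2712 CPM with shSIRT3-2. With shSIRT3-1, CD74 went the other way, from a mean of 534 to 779 CPM in HBL1 and from 886 to 1142 CPM in Karpas422. So did CD37 in HBL1 and POU2AF1 in Karpas422. No B-cell marker was called in OCI-LY1 (median 0.06 and 0.12), where 4.50% and 6.41% of all genes tested were called. The part of these markers in the results for CD22, MS4A1 and BLNK was not tested. In bulk RNA, fewer cells that express a gene and less RNA per cell cannot be told apart.

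MS4A1, at chr11:60223319-60238225 of hg19, was the other gene that separated the hairpins. In Karpas422 it was at 550, 436 and 472 CPM with shCtr, 740, 733 and 466 CPM with shSIRT3-1 and 330, 354 and 163 CPM with shSIRT3-2. In OCI-LY1 it was at 252, 147 and 144 CPM with shCtr, 385, 357 and 381 CPM with shSIRT3-1 and 195, 177 and 161 CPM with shSIRT3-2. In HBL1 it was at 526, 551 and 594 CPM with shCtr, 636, 640 and 319 CPM with shSIRT3-1 and 324, 368 and 325 CPM with shSIRT3-2. The shSIRT3-2 libraries lay below the controls in Karpas422 and HBL1 but overlapped them in OCI-LY1, where instead the shSIRT3-1 libraries lay above the controls.

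MS4A1 rose 2.14-fold in OCI-LY1 with shSIRT3-1 (log2 1.10, SE 0.19, adjusted p = 0.0174) and did not pass the test there with shSIRT3-2 (log2 0.02, 95% interval -0.41 to 0.45). That rise was lost at adjusted p 0.0515 to 0.0628 without OCI-LY1 shCtr replicate 2 or 3 or any 1 of the 3 OCI-LY1 shSIRT3-1 libraries (log2 0.96 to 1.13). MS4A1 fell with shSIRT3-2 in Karpas422 (log2 -0.86, SE 0.29, adjusted p = 0.0456) and in HBL1 (log2 -0.72, SE 0.25, adjusted p = 0.0498). Both calls were at the edge of the threshold, and both were lost with no filter on low values, with median-ratio scaling, without a variance trend and by edgeR's quasi-likelihood test on recovered reads. The Karpas422 call was lost without any 1 of the shCtr libraries, shSIRT3-1 replicate 1 or 2, or shSIRT3-2 replicate 3 (log2 -0.93 to -0.50, adjusted p 0.0592 to 0.13), and the HBL1 call without any 1 of the 6 HBL1 shCtr and shSIRT3-2 libraries (log2 -0.78 to -0.67, adjusted p 0.0896 to 0.136). Over the 3 lines MS4A1 with shSIRT3-2 was below the fold threshold (log2 -0.52, adjusted p = 0.027), and was called without OCI-LY1 shCtr replicate 2 or 3 (log2 -0.61 to -0.60).

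Between the hairpins, MS4A1 was lower with shSIRT3-2 in Karpas422 (log2 -1.24, SE 0.29, adjusted p = 0.015) and OCI-LY1 (log2 -1.08, SE 0.19, adjusted p = 0.0125). The first was lost without Karpas422 shSIRT3-1 replicate 1 (log2 -1.13, adjusted p = 0.0585), and the second without OCI-LY1 shSIRT3-1 replicate 3 or shSIRT3-2 replicate 3 (adjusted p 0.054 to 0.0559). In HBL1 the difference of -0.58 was not called (adjusted p = 0.0871). It was called without HBL1 shSIRT3-1 replicate 3, the library at 319 CPM (log2 -0.91, adjusted p = 0.000265), and by edgeR's quasi-likelihood test (log2 -0.69, adjusted p = 0.0424) and likelihood ratio test (0.0151).

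**Figure D4:**
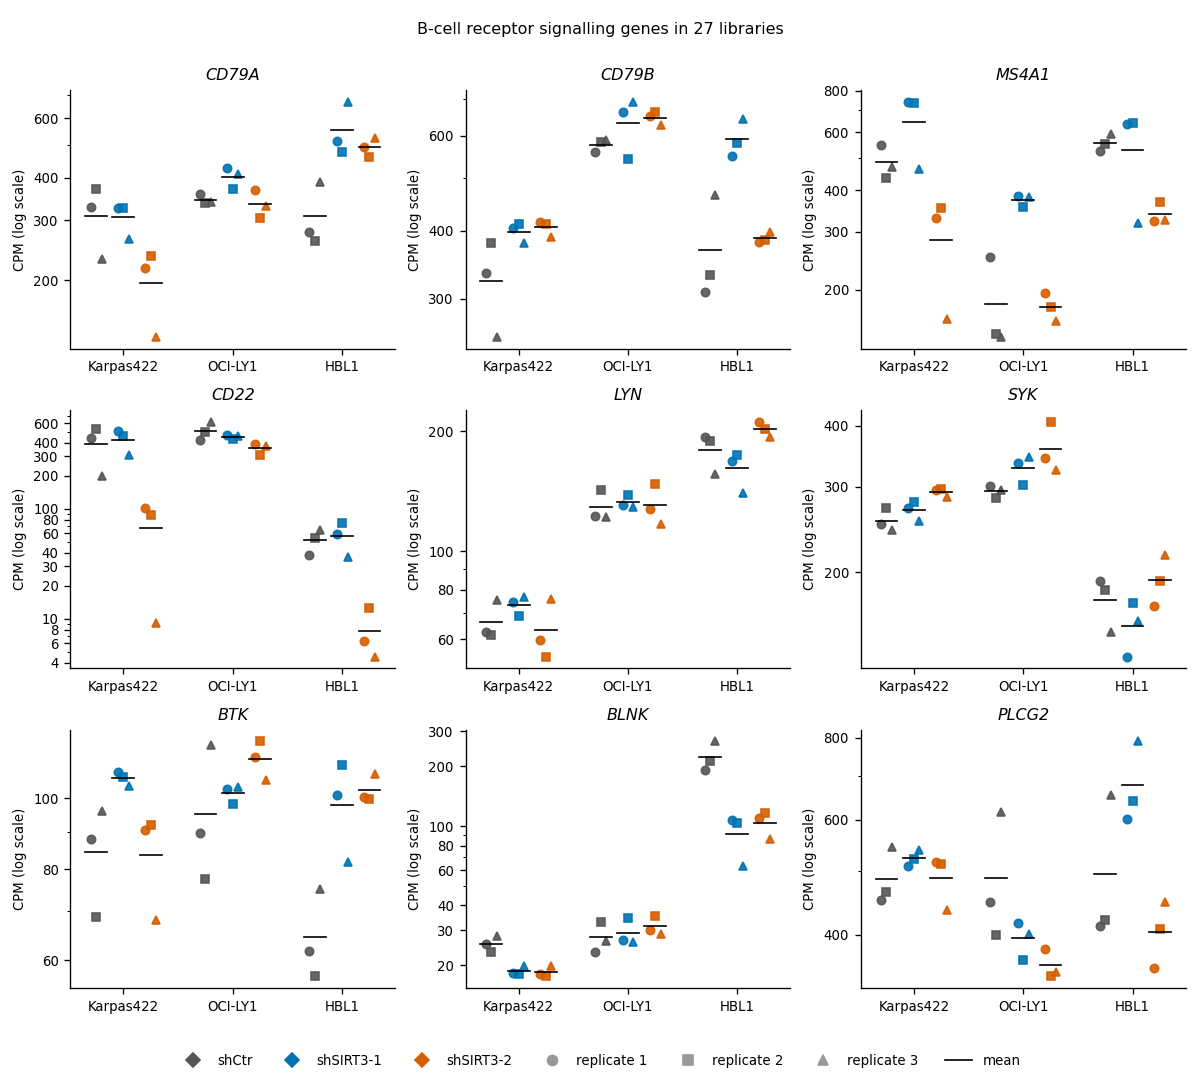
CPM of each of the 9 genes in the 27 libraries on a log axis, by line and shRNA, with symbols for replicates and a bar for the mean of each group. The shSIRT3-2 libraries of Karpas422 and HBL1 have the lowest CD22 values of their lines, and BLNK in HBL1 drops from 193 to 267 CPM with shCtr to 62.9 to 116 CPM with the SIRT3 shRNAs.

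Of the kinases, LYN and SYK were called against shCtr in no line, while BTK was called in HBL1. LYN, the Src-family kinase that starts the cascade and lies on chromosome 8, had log2 fold changes in single lines between -0.15 and 0.18. Its libraries ranged from 140 to 211 CPM in HBL1, 117 to 148 CPM in OCI-LY1 and 54.4 to 76.9 CPM in Karpas422. SYK, at chr9:93564069-93660831 of hg19, had log2 fold changes in single lines between -0.18 and 0.28. In OCI-LY1 it was at 302, 285 and 296 CPM with shCtr and 343, 408 and 325 CPM with shSIRT3-2, above the controls in each library but with an adjusted p of 0.141. Over the 3 lines SYK with shSIRT3-2 passed the adjusted p (0.0201) at a log2 of only 0.20.

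BTK, the kinase inhibited by ibrutinib, lies at chrX:100604326-100645784 of hg19. In HBL1 it was at 61.8, 57.1 and 75.0 CPM with shCtr, 101, 111 and 81.7 CPM with shSIRT3-1 and 100, 99.8 and 108 CPM with shSIRT3-2, so every knockdown library was above the controls. BTK rose with shSIRT3-1 (log2 0.60, SE 0.14, adjusted p = 0.0096) and with shSIRT3-2 (log2 0.68, SE 0.14, adjusted p = 0.00629) in HBL1. The shSIRT3-1 value fell below the fold threshold without HBL1 shCtr replicate 1 or 2 or shSIRT3-1 replicate 1 or 2 (log2 0.50 to 0.57, adjusted p 0.0274 to 0.0457), and the shSIRT3-2 call held without any 1 library. In Karpas422 the log2 fold changes of BTK were 0.35 and -0.01 and in OCI-LY1 0.12 and 0.27, none of them called.

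BLNK, the adaptor that couples SYK to its targets, lies at chr10:97948927-98031344 of hg19. In HBL1, the line in which it was abundant, it was at 193, 213 and 267 CPM with shCtr, 107, 104 and 62.9 CPM with shSIRT3-1 and 110, 116 and 86.1 CPM with shSIRT3-2. The knockdown libraries did not overlap the controls. BLNK fell to 0.401 of control with shSIRT3-1 (log2 -1.32, SE 0.22, adjusted p = 0.00235) and to 0.465 of control with shSIRT3-2 (log2 -1.11, SE 0.22, adjusted p = 0.00581), and both calls held without any 1 library. It was the only 1 of the 9 genes called lower with both shRNAs in a line.

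In Karpas422, BLNK was at 25.5, 23.5 and 28.2 CPM with shCtr, 18.3, 18.2 and 19.9 CPM with shSIRT3-1 and 18.2, 17.6 and 19.8 CPM with shSIRT3-2. Here too the groups did not overlap, and the adjusted p passed (0.00685 and 0.00605), but log2 fold changes of -0.45 and -0.47 stayed under the fold threshold. In OCI-LY1, where BLNK lay between 23.4 and 35.3 CPM, the log2 fold changes were 0.08 and 0.19 and were not called. Exons of BLNK overlap those of ZNF518A on the opposite strand, which was at 11.9 to 73.6 CPM over all 27 libraries. Whether reads were counted by strand is not stated, so reads of the 2 genes may not be separable. That range covers the BLNK levels of Karpas422 and OCI-LY1 and reaches those of the HBL1 knockdown libraries (62.9 to 116 CPM).

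PLCG2, the phospholipase at the end of this chain, lies at chr16:81812884-81996290 of hg19. It was level between the lines in the controls, with group means of 488, 489 and 496 CPM in Karpas422, OCI-LY1 and HBL1. In HBL1 it was at 413.3, 422.2 and 653.5 CPM with shCtr, 601, 641 and 790 CPM with shSIRT3-1 and 356, 408 and 449 CPM with shSIRT3-2. The hairpins did not overlap each other there, and both overlapped the controls, which were spread widely. PLCG2 differed between the hairpins there (log2 -0.74, SE 0.20, adjusted p = 0.0184), a call lost without HBL1 shSIRT3-2 replicate 1 or 2 (adjusted p 0.0531 to 0.0745). Against shCtr in HBL1, neither 0.47 nor -0.27 was called on the log2 scale, and the first was called without HBL1 shCtr replicate 3 (log2 0.69, adjusted p = 0.0123). In OCI-LY1 its log2 fold changes were -0.28 and -0.42, and in Karpas422 0.11 and 0.01.

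Whether the response to the SIRT3 shRNAs differed between the lines was tested with the interaction of line and shRNA over all 27 libraries. The test passed at an adjusted p under 0.05 for 6 of the 9 genes, against 41.8% of all genes tested. BLNK (adjusted p = 0.00118) and CD79A (0.00728) differed most clearly, and both calls held without any 1 of the 27 libraries. CD22 (0.0261) lost the call without OCI-LY1 shSIRT3-2 replicate 1 or 3 (adjusted p 0.0609 to 0.0654). CD79B (0.0359) lost it without Karpas422 shSIRT3-2 replicate 1 or 2, OCI-LY1 shSIRT3-1 replicate 2, HBL1 shCtr replicate 2, HBL1 shSIRT3-1 replicate 2 or 3, or any HBL1 shSIRT3-2 library (0.0506 to 0.0874). BTK (0.0423) lost it without any 1 of 16 libraries (0.0523 to 0.0993). They were all but Karpas422 shCtr replicate 2, Karpas422 shSIRT3-2 replicates 1 and 2, the OCI-LY1 shCtr libraries, OCI-LY1 shSIRT3-2 replicate 3, HBL1 shCtr replicate 3 and the HBL1 shSIRT3-1 libraries. PLCG2 (0.0394) also lost it without any 1 of 16 (0.0508 to 0.0952). For PLCG2 the exceptions were replicate 3 of each Karpas422 group, OCI-LY1 shCtr replicates 1 and 2, OCI-LY1 shSIRT3-2 replicates 1 and 2, HBL1 shCtr replicate 3, HBL1 shSIRT3-1 replicates 1 and 2 and HBL1 shSIRT3-2 replicate 3. MS4A1 (0.0621) was not called, except without Karpas422 shSIRT3-1 replicate 3, Karpas422 shSIRT3-2 replicate 2 or 3, OCI-LY1 shCtr replicate 1, or HBL1 shSIRT3-1 replicate 1 or 2 (0.0212 to 0.0485), with quantile normalization (0.0263) and with a replicate block (0.0187). LYN (0.107) was not called, except without Karpas422 shSIRT3-2 replicate 3 (0.03) and with a replicate block (0.00745). SYK (0.388) was not called under any of the alternatives run. Among other settings, the call was also lost for CD79B with no filter on low values (0.054) and quantile normalization (0.0665), for PLCG2 with no filter (0.0605), and for BTK with no filter (0.0628), without a variance trend (0.0554) and with a replicate block (0.0605). With shSIRT3-2, CD79A was higher in HBL1 and lower in Karpas422.

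The 9 groups were also put in order of their mean CPM for each gene. For BTK all 8 neighbours in that order overlapped, and the highest group mean was 1.75-fold the lowest. For CD79B and MS4A1, 7 of the 8 neighbouring pairs overlapped. CD79A, LYN, SYK and BLNK had 5 overlapping pairs each, and BLNK spanned 12.1-fold, with HBL1 shCtr alone at the top and Karpas422 shSIRT3-2 last. CD22 ran from OCI-LY1 shCtr at 511 CPM down to HBL1 shSIRT3-2 at 7.80 CPM. It had a gap between OCI-LY1 shSIRT3-2 at 357 CPM and Karpas422 shSIRT3-2 at 66.5 CPM. Another gap lay between the last group and HBL1 shCtr at 52.1 CPM.

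Other genes of the pathway were described from gene lists, by how many of their tested genes were called over the 3 lines. Of all genes tested, 9.09% were called lower and 3.92% higher with shSIRT3-1, and 10.2% lower and 3.29% higher with shSIRT3-2. Of 10 further Src and Tec family kinases with the phosphatase CD45 (PTPRC), 4 were lower with shSIRT3-1 and 5 with shSIRT3-2, and none was higher. FGR (log2 -1.03 and -1.28) and FYN (-0.91 and -0.88), Src-family kinases like LYN, were called lower with both shRNAs. LYN had log2 fold changes of 0.01 and 0.04 in the same fit.

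Among 23 inhibitory receptors and phosphatases, 2 were lower and 1 higher with shSIRT3-1, and 8 were lower with shSIRT3-2. PAG1, an adaptor that holds the inhibitory kinase CSK at the membrane (log2 -0.98 and -1.19), and PTPN22, a phosphatase of Src-family kinases (-0.65 and -1.43), were called with both. Of 21 adaptors and guanine exchange factors, 4 and 5 were lower, among them LAT2 (-0.84 and -1.81) and SH3BP2 (-1.08 and -1.13) with both. RASGRP3 (-0.73 and -0.81), an activator of RAS, NFATC2 (-0.83 and -1.08), a calcium-regulated transcription factor, and JCHAIN (-1.05 and -0.67), the joining chain of secreted immunoglobulin, were lower with both as well. Of the immunoglobulin chain list, 4 of 9 names were found in the files, and 1 and 2 of them were lower with the respective shRNA.

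**Figure D5:**
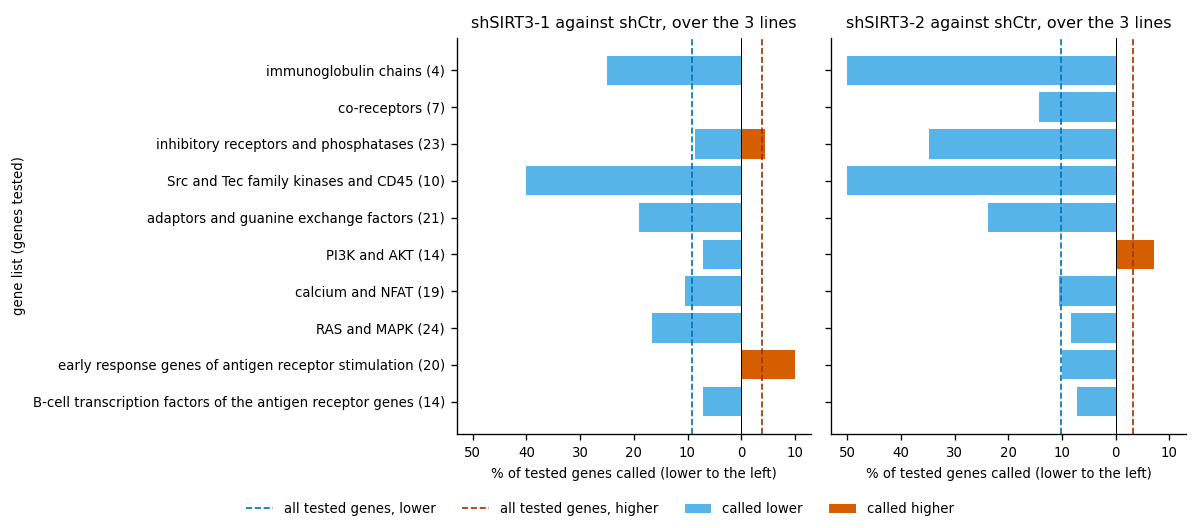
Share of the tested genes of each list called lower (left) or higher (right) over the 3 lines with each shRNA, with the number tested in brackets and dashed lines for all genes tested (9.09% and 10.2% lower, 3.92% and 3.29% higher). The Src and Tec family list has 4 of 10 genes lower with shSIRT3-1 and 5 of 10 with shSIRT3-2.

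Further lists were counted over the 3 lines in the same way, to be read beside the shares of all genes given above. Calls were 1 lower with shSIRT3-1 and 1 higher with shSIRT3-2 of 14 PI3K and AKT genes, 2 and 2 lower of 19 calcium and NFAT genes, 4 and 2 lower of 24 RAS and MAPK genes, and 1 and 1 lower of 14 B-cell transcription factors. In HBL1 alone, however, 7 and 6 of the 14 B-cell transcription factors were lower (18.8% and 16.0% of all genes). The counts were 3 and 4 in Karpas422 (11.5% and 9.44%) and 0 and 0 in OCI-LY1 (2.45% and 4.26%). Of 7 co-receptors, CD40 was lower with shSIRT3-2, and it is named because of its value. Under quantile normalization the share of called genes that were lower moved from 69.9% to 54.6% with shSIRT3-1 and from 75.6% to 57.4% with shSIRT3-2, while the Src and Tec list had 4 and 5 lower there too. In HBL1 the share moved from 68.0% to 48.4% and 49.6% for shSIRT3-1 and shSIRT3-2, and in Karpas422 with shSIRT3-1 from 72.1% to 53.0%. The median log2 fold change of all genes in HBL1 moved from -0.11 to 0.04 with shSIRT3-1 under quantile normalization and from -0.06 to 0.06 with shSIRT3-2 under median-ratio scaling.

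Early response genes of antigen receptor stimulation, which are transcribed soon after the receptor is engaged, were called in different directions in the lines. Over the 3 lines, 2 of 20 tested were higher with shSIRT3-1 and 2 were lower with shSIRT3-2. In Karpas422, 6 of 17 tested were higher with shSIRT3-1 (4.45% of all genes) and 5 of 17 were lower with shSIRT3-2 (9.44%). In HBL1, 3 of 18 were higher and 4 lower with shSIRT3-1 (8.83% and 18.8% of all genes), and 10 were higher and 1 lower with shSIRT3-2 (7.51% and 16.0%). Values of the next genes were looked at before they were chosen. The chemokine gene CCL3 averaged 2.31 ± 0.45 CPM with shCtr and 37.2 ± 19.5 CPM with shSIRT3-2 in HBL1 (SD, n = 3; log2 3.83, SE 0.37, adjusted p = 0.000222). EGR1, an immediate early transcription factor, was lower with shSIRT3-2 in Karpas422 (log2 -2.35, SE 0.29) and higher in HBL1 (log2 2.08, SE 0.52), and its interaction with line had an adjusted p of 0.00298. In OCI-LY1, 9 of the 22 listed genes were tested and 1 was called with each hairpin, higher with shSIRT3-1 (2.04% of all genes) and lower with shSIRT3-2 (4.26%).

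For each of the 9 genes, the most similar other transcripts were found by Pearson r over the 27 libraries after subtracting the mean of each line, which describes libraries that share lines and shRNAs. CD22 was closest to E2F5 (r = 0.89) and PTPRCAP (0.88), MS4A1 to ECSIT (0.87) and CRLS1 (0.85), CD79A to TMEM60 (0.87) and ZNF214 (0.80), and CD79B to TRAPPC12 (0.89) and RABEP2 (0.89). The closest to BLNK were MTCP1 (0.90) and LINC01558 (0.90), to PLCG2 ALOX5 (0.89) and GNE (0.89), and to BTK HMGCS1 (0.84) and SNORA8 (0.83). For LYN they were RTKN2 (0.77) and BUB3 (0.75), and for SYK CASP2 (0.80) and TRIM24 (0.79).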

How the data were processed

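The authors prepared libraries from total RNA with random-primed first strands, sequenced paired ends, used STAR for alignment (hg19) and Rsubread for assignment to RefSeq genes; strand settings and versions are not given in the sources used here. The values the authors deposited are labelled FPKM, but each is a whole multiple of 1 step per library whatever the gene's length (all values within 0.01 of a read), so they are CPM of an unstated total, of which genes hold 40.3% to 45.6%. Dividing by the step recovered whole read counts. In 2 OCI-LY1 libraries (shCtr replicate 3 and shSIRT3-2 replicate 1) the step is close to a power of 10, so whole multiples are weaker evidence there.

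From these values, log2(CPM + 0.1) was fitted with limma 3.58.1 in R 4.3.3, with a variance trend. Genes with at least 1 CPM in at least 3 libraries were tested (13076 over all lines, 11235 in Karpas422, 11205 in OCI-LY1, 11862 in HBL1, 12607 in controls) and p-values were adjusted by Benjamini-Hochberg over all of them. The fit over the lines had line and shRNA as additive terms, each line was fitted alone, and the interaction was tested by an F test. Fold changes are on the log2(CPM + 0.1) scale and understate changes of low genes. The median depth was 45669254 reads on genes.

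The 9 genes, the gene lists, the motifs and the tests were chosen with earlier results of these data known. Named are the 9 genes, SIRT3, up to 3 genes per list called in 1 direction with both shRNAs by size, and the 2 nearest genes to each. Replicate numbers in the labels were tested for pairing by the correlation of deviations from group means. Every same-number pair exceeded 0.1 in OCI-LY1 (lowest r 0.11) and HBL1 (lowest 0.22) but not in Karpas422 (8 of 9, lowest 0.01). Alternatives were pseudocounts of 1 and 0.01, no filter, quantile and median-ratio scaling, no variance trend, a replicate block, edgeR 4.0.16 on recovered reads, other sample sets, and leaving out replicates. On simulated data with a 2-fold change, 192 of 192 changed genes were recovered over the lines (of 12270 tested), 172 of 190 in OCI-LY1 alone (of 12063) and 115 of 192 by the interaction (of 12274). False calls were 0, 7 and 5 in the same order. The simulation gave every gene a dispersion of 0.03, the same base level in all lines and no replicate effect. These shares therefore do not give the recovery to be had for the 9 genes. Python 3.11.15 and matplotlib 3.10.9 made tables and figures. Gene positions and lengths are those of GENCODE release 44 on hg19. No column of the authors' own comparisons was used. Results for 1 gene list and for some single genes are not reported here.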

Additional observations from a re-analysis of the deposited data

Results flagged for a closer look

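The response to the SIRT3 shRNAs differed between the lines for 6 genes by the limma interaction test over all genes. The adjusted p was 0.00728 for CD79A, 0.0359 for CD79B, 0.0261 for CD22, 0.0423 for BTK, 0.00118 for BLNK and 0.0394 for PLCG2. The calls of BTK and of PLCG2 were each lost without any 1 of 16 of the 27 libraries. That of CD79B was lost without any 1 of 9 libraries and that of CD22 without either of 2. For CD79A the log2 fold changes with shSIRT3-2 were 0.69 in HBL1, -0.05 in OCI-LY1 and -0.67 in Karpas422. For BLNK they were -1.11, 0.19 and -0.47 in the same order of lines, and for CD22 -2.82, -0.51 and -3.04. What sets the lines apart was not tested, and for OCI-LY1 the line and its different culture medium cannot be told apart.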

How the results depend on the processing

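In Karpas422 with shSIRT3-2, 1 of the 9 genes was called with no filter on low values, with median-ratio scaling and without a variance trend, against 3. With no filter, 3 genes in place of 6 differed in response between lines. Leaving out a replicate number or 1 library, calls ranged from 0 to 1 over the 3 lines with shSIRT3-1 and from 1 to 2 with shSIRT3-2. The range was 0 to 1 and 0 to 3 in Karpas422 with shSIRT3-1 and shSIRT3-2, 0 to 1 and 0 to 1 in OCI-LY1, and 1 to 5 and 1 to 5 in HBL1. It was 1 to 7 between hairpins in single lines, 0 to 7 for the interaction, 2 to 2 between hairpins over the lines and 11 to 12 between lines in controls. No called value changed sign under any alternative run.

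With a replicate block, the counts moved by at most 1, from 6 to 7 between hairpins in single lines and from 6 to 7 for the interaction. Blocking on the pairing ended the interaction call of BTK (adjusted p = 0.0605), made those of MS4A1 (0.0187) and LYN (0.00745), and called CD79A between hairpins in Karpas422 (log2 -0.67, adjusted p = 0.00474). It changed no other call. No block was fitted to the contrast of lines in controls.

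What read depth adds to the spread between replicates was not tested. The cause of the losses above was not tested.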
